A study of Mus musculus with 6 samples.

Results

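Matrix metalloproteinases (MMPs) are zinc enzymes that cut collagen, elastin and other matrix proteins, and tissue inhibitors of metalloproteinases (TIMPs) are small proteins that plug their active site. After kidney injury, monocytes, macrophages and neutrophils release MMPs as they cross basement membranes, and stromal and endothelial cells of the kidney make both enzymes and inhibitors. The 10 genes described here were chosen by name and comprise the MMP genes Mmp2, Mmp9, Mmp12, Mmp13, Mmp14 and Mmp19, the related membrane protease gene Adam8, and the inhibitor genes Timp1, Timp2 and Timp3. All 10 were found by symbol among 46603 genes of the count table, and all 10 were among the 15440 genes that passed the filter on low counts. The libraries came from CD11B+ cells, taken with anti-CD11B magnetic beads from kidneys of male mice aged 10 to 12 weeks, 3 days after both renal pedicles had been clamped for 28 minutes (bilateral ischemia-reperfusion acute kidney injury, IRI-AKI). All mice carried Rosa26-LSL-RARaT403X, an allele for a truncated, dominant negative retinoic acid receptor that is silent until Cre removes its stop cassette. The 3 PTEC DN RAR libraries were from PEPCK CRE+ mice, in which Cre under the PEPCK promoter switches the allele on in proximal tubular epithelial cells (PTECs), and the 3 Cre- control libraries were from PEPCK CRE- mice with the same allele. No uninjured kidney was in the series, so each difference is between injured kidneys. The labels give each library an identifier of its own but do not say that each was 1 mouse, so p-values measure the spread between these libraries.

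Counts summed over genes ran from 29318041 to 46517005 per library, at which 3 reads are worth from 0.0636 to 0.101 CPM (read counts scaled to a common library total after TMM, which evens out differences in composition). The selecting antigen's own gene, Itgam, measured from 1737 to 1995 CPM in Cre- controls and from 980 to 1366 CPM in PTEC DN RAR libraries, lower by edgeR (adjusted p = 0.00818). The macrophage receptor gene Csf1r (3292 to 3591 CPM against 3097 to 3522 CPM) and the pan-leukocyte gene Ptprc (832 to 1064 CPM against 805 to 1010 CPM) overlapped between genotypes. Rara overlapped too (35.3 to 45.4 CPM against 30.7 to 37.6 CPM), and the dominant negative allele has no entry of its own in the counts. Summed over 12 marker genes, proximal tubule transcripts lay between 608 and 810 CPM in Cre- controls and between 2036 and 3074 CPM in PTEC DN RAR libraries, so tubule transcripts were present in all 6 libraries. The mitochondrial share of counts was 5.03% to 8.77% in Cre- controls and 10.4% to 12.1% in PTEC DN RAR libraries.

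What the 7 proteases share is the zinc site, shown here because it holds the zinc ion that the enzymes cut with, and in the MMPs it is the place where a TIMP binds. Each of the 7 coding sequences held exactly 1 stretch of 11 codons with the pattern histidine, glutamate, any pair, histidine, any pair, glycine, any pair, histidine. The stretches below are written 5′ to 3′ on the coding strand, with the 3 histidine codons that hold the zinc ion in capitals, from GENCODE M21 transcripts on GRCm38.
Mmp2: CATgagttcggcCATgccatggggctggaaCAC
Mmp9: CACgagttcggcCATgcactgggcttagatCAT
Mmp12: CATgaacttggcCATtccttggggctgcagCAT
Mmp13: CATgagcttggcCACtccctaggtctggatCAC
Mmp14: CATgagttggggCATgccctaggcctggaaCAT
Mmp19: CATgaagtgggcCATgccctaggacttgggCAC
Adam8: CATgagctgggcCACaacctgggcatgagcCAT

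Over these 33 bases, pairs of the 6 MMPs shared from 21 to 27 bases, and Adam8 shared from 21 to 23 with them. For the genes that differed most, the stretch of Mmp9 lies at chr2:164951133-164951165 (plus strand, exon 8 of 13), that of Mmp19 at chr10:128795673-128795705 (plus strand, exon 5 of 9) and that of Adam8 at chr7:139987893-139987925 (minus strand, exon 11 of 24). The others lie at chr8:92839279-92839311 (Mmp2, exon 8 of 13), chr9:7352914-7352946 (Mmp12, exon 5 of 10), chr9:7276573-7276605 (Mmp13, exon 5 of 10) and chr14:54437627-54437659 (Mmp14, exon 5 of 10), all on the plus strand. On the side of the inhibitors, the mature TIMP protein starts with a cysteine that reaches into this zinc site. The codons for that start, a cysteine, serine or threonine, cysteine, any residue and proline, were found once in each TIMP, with the first cysteine codon in capitals.
Timp1: TGTagctgtgcccca
Timp2: TGCagctgctccccg
Timp3: TGCacatgctctccc

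Timp1 has its stretch at chrX:20871111-20871125 (plus strand, exon 2 of 6), Timp2 at chr11:118354998-118355012 (minus strand, exon 1 of 5) and Timp3 at chr10:86300923-86300937 (plus strand, exon 1 of 5).

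Of the 10 genes, 4 fell in PTEC DN RAR libraries (Mmp9, Mmp19, Adam8 and Timp1), 2 rose (Mmp2 and Timp3) and 4 did not pass the test (Mmp12, Mmp13, Mmp14 and Timp2), by edgeR's quasi-likelihood test with p-values adjusted over all 15440 genes and a threshold of 0.05. The background was high, since 17.1% of all genes tested were lower and 23.6% higher by the same rule, 40.6% in all. The groups did not overlap in those 6 genes, against 24.2% of all genes in which the PTEC DN RAR values all lay below those of Cre- controls and 29.2% in which they all lay above. The median log2 fold change was -0.27 over the 10 genes and 0.04 over all genes, and the 10 ranged from -2.63 to 1.77. In bulk counts such as these, fewer cells of a type and less RNA per cell cannot be told apart. The 4 falls and 2 rises kept their direction and their adjusted p under 0.05 in each of 14 alternative fits. One of these set the libraries equal on 24 pan-leukocyte genes, which moved the median of all genes to 0.25. It left 704 genes lower and 4960 higher, in place of 2636 and 3640. By the main fit, 8 of these 24 genes were lower and 0 higher, beside 17.1% and 23.6% of all genes. Their median log2 fold change was -0.20, so this reference was itself not level between genotypes after TMM.

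**Figure D1:**
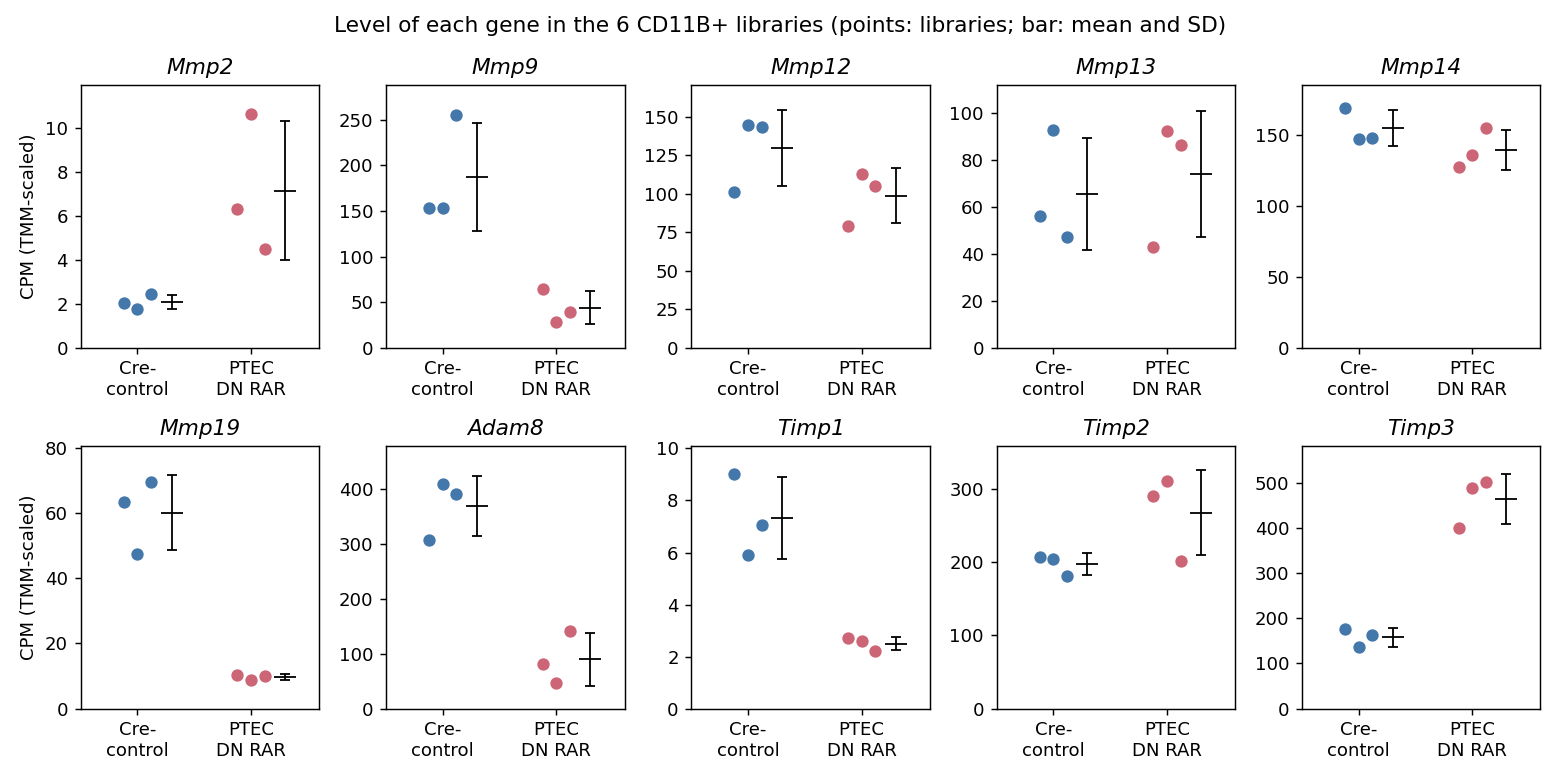
Level of each of the 10 genes in CPM, scaled by TMM, in the 6 libraries, with 1 point per library and the mean and SD (n = 3) beside each group. Mmp9, Mmp19, Adam8 and Timp1 lie lower in every PTEC DN RAR library and Mmp2 and Timp3 higher, while the other 4 overlap.

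Mmp19 (ENSMUSG00000025355, chromosome 10 of GRCm38 from 128790910 to 128800824) encodes a secreted MMP that cuts basement membrane proteins. It measured 63.4, 47.3 and 69.7 CPM in Cre- controls and 10.5, 8.67 and 9.90 CPM in PTEC DN RAR libraries. The lowest control was thus far above the highest PTEC DN RAR library, and the PTEC DN RAR values lay within 2 CPM of each other. It was 6.21-fold lower, a log2 fold change of -2.63 with an SE of 0.16 (edgeR, adjusted p = 0.000121), which was the largest fall of the 10. On the opposite strand, Tmem198b covers 789 bases of Mmp19 exons (22.3%) and Gm47093, not analysed here, a further 212 bases, and whether the counting used strand is not given in the sources used here. Tmem198b itself measured 16.9 ± 2.12 CPM and 14.5 ± 1.32 CPM (SD, n = 3 each) and did not pass the test (edgeR, adjusted p = 0.196).

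Mmp9 (ENSMUSG00000017737, chromosome 2 from 164940780 to 164955850) encodes gelatinase B, which cuts denatured collagen and type IV collagen, is stored in neutrophil granules and is secreted by activated macrophages. It measured 153, 153 and 255 CPM in Cre- controls and 64.0, 28.5 and 39.3 CPM in PTEC DN RAR libraries. Control replicate 3 stood above the other controls, and without it the log2 fold change stayed past the threshold, as it did without each other library (from -2.46 to -1.85). With all libraries it was 4.26-fold lower, a log2 fold change of -2.09 with an SE of 0.31 (edgeR, adjusted p = 0.00142).

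Adam8 (ENSMUSG00000025473, chromosome 7 from 139978932 to 139992562) encodes a membrane protease of leukocytes that sheds adhesion molecules and receptors, and unlike the MMPs it is not held by TIMPs. It measured 306, 409 and 391 CPM in Cre- controls and 81.4, 46.4 and 142 CPM in PTEC DN RAR libraries. The PTEC DN RAR values were unequal, with the highest about 3 times the lowest, and still lay below every control. Adam8 was 4.10-fold lower, a log2 fold change of -2.04 with an SE of 0.34 (edgeR, adjusted p = 0.00254). Exons of Gm16201, on the opposite strand, cover 46 bases (0.992%) of Adam8 exons. Gm16201 averaged 1.94 CPM in controls and 0.940 CPM in PTEC DN RAR libraries and fell too (log2 fold change -1.03, edgeR, adjusted p = 0.0361).

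Mmp2 (ENSMUSG00000031740, chromosome 8 from 92827291 to 92853420) encodes gelatinase A, made mainly by fibroblasts and other stromal cells. It was scarce, with 2.05, 1.78 and 2.44 CPM in Cre- controls and 6.33, 10.7 and 4.49 CPM in PTEC DN RAR libraries, from 53 to 80 reads per control library. It was the only protease of the 7 that rose, 3.42-fold or by 1.77 on the log2 scale with an SE of 0.32 (edgeR, adjusted p = 0.00337). Of 10 fibroblast and pericyte markers, 7 were tested, 6 were higher and 0 lower, and their summed level was between 24.1 and 36.1 CPM in Cre- controls and between 51.6 and 76.0 CPM in PTEC DN RAR libraries. Their median log2 fold change was 1.05. Medians were higher for podocyte (1.24), endothelial (1.42), distal tubule and collecting duct (1.56), proximal tubule (1.77) and thick ascending limb (2.12) markers. The part of any of these cells in the rise of Mmp2 was not tested.

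The other 3 MMP genes did not pass the test. Mmp14 (ENSMUSG00000000957, chromosome 14 from 54431612 to 54445364) encodes a membrane-bound MMP that activates pro-MMP2 at the cell surface. It measured 169, 147 and 148 CPM in Cre- controls and 127, 136 and 155 CPM in PTEC DN RAR libraries, so that the groups overlapped. Its log2 fold change was -0.15 with a 95% interval from -0.39 to 0.08 (edgeR, adjusted p = 0.265), and it took the opposite sign, 0.077, with scaling on pan-leukocyte genes.

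Mmp12 (ENSMUSG00000049723, chromosome 9 from 7344381 to 7369499) is the gene of macrophage elastase. It measured 101, 145 and 143 CPM in Cre- controls and 79.0, 113 and 105 CPM in PTEC DN RAR libraries, with control replicate 1 inside the PTEC DN RAR range. Mmp1b, whose exons cover 157 bases (2.17%) of Mmp12 exons on the opposite strand, had a count of 0 in all 6 libraries. The log2 fold change of Mmp12, -0.39, had an unadjusted p of 0.049 and an adjusted p of 0.0982 by edgeR. Leaving out control replicate 1 gave -0.55 and an adjusted p of 0.0212, and over all 14 alternatives the adjusted p lay between 0.00928 and 0.535.

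Mmp13 (ENSMUSG00000050578, chromosome 9 from 7272514 to 7283331) encodes collagenase 3, which cuts intact fibrillar collagen. It measured 56.4, 92.6 and 47.4 CPM in Cre- controls and 43.2, 92.2 and 86.4 CPM in PTEC DN RAR libraries, so both groups held a library near the lowest and a library near the highest value. Its log2 fold change was 0.18 with a 95% interval from -0.53 to 0.88 (edgeR, adjusted p = 0.677), and it changed sign without control replicate 3 (-0.056) or PTEC DN RAR replicate 2 (-0.02).

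Mmp12 and Mmp13 are neighbors, 61.0 kb apart, in a cluster of 10 listed MMP genes that spans 427.1 kb of chromosome 9. Of the 5 cluster genes that passed the filter, 2 fell (Mmp8 and Mmp27), 0 rose, and Mmp12, Mmp13 and Mmp7 did not pass the test, beside 40.6% called over all genes tested.

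**Figure D2:**
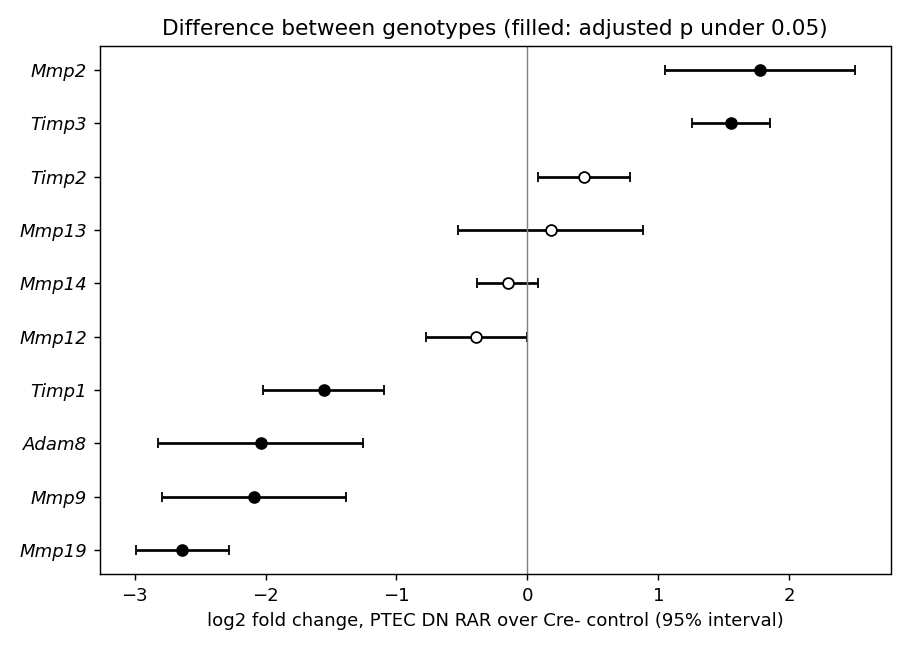
Log2 fold change of each of the 10 genes, PTEC DN RAR over Cre- control, with its 95% interval from edgeR (n = 3 per group). Filled points passed an adjusted p of 0.05, from Mmp19 at -2.63 to Mmp2 at 1.77, and the open points are Mmp12, Mmp14, Mmp13 and Timp2.

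The inhibitors did not move as a group. Timp1 (ENSMUSG00000001131, chromosome X from 20870166 to 20874735), a soluble inhibitor that also binds pro-MMP9, measured 9.02, 5.90 and 7.06 CPM in Cre- controls and 2.70, 2.59 and 2.20 CPM in PTEC DN RAR libraries. The groups did not overlap, and the difference was 2.94-fold or -1.55 on the log2 scale with an SE of 0.20 (edgeR, adjusted p = 0.000844).

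Timp3 (ENSMUSG00000020044, chromosome 10 from 86300372 to 86349506), the inhibitor that stays bound to the matrix and also holds ADAM17, went the other way. It measured 176, 135 and 163 CPM in Cre- controls and 400.4, 489 and 502 CPM in PTEC DN RAR libraries. All PTEC DN RAR values were above all controls. It was 2.94-fold higher, by 1.55 on the log2 scale with an SE of 0.13 (edgeR, adjusted p = 0.000201). Exons of Syn3, on the opposite strand, cover 1733 bases of Timp3 exons (21.3%). Syn3 measured 0.394 ± 0.129 CPM and 1.67 ± 0.569 CPM (SD, n = 3 each) and rose too (edgeR, adjusted p = 0.00336). Endothelial markers were higher for 9 of 9 genes, with summed levels between 89.5 and 131 CPM in Cre- controls and between 262 and 320 CPM in PTEC DN RAR libraries, and a median log2 fold change of 1.42. For proximal tubule markers 12 of 12 were higher, with a median of 1.77, and for podocyte markers 4 of 6, with a median of 1.24. The part of these cells in the rise of Timp3 was not tested.

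Timp2 (ENSMUSG00000017466, chromosome 11 from 118301069 to 118355740), which bridges MMP14 and pro-MMP2, measured 208, 205 and 181 CPM in Cre- controls and 290.2, 310.4 and 201 CPM in PTEC DN RAR libraries. PTEC DN RAR replicate 3 lay within the control range. The log2 fold change was 0.43 with a 95% interval from 0.08 to 0.79, and its adjusted p of 0.0525 by edgeR was just over the threshold. It passed in 7 of 14 alternatives, with 0.56 and an adjusted p of 0.00584 without PTEC DN RAR replicate 3, and the adjusted p ranged up to 0.212.

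The balance of an enzyme and its inhibitor can be read within a library, where scaling plays no part. Mmp9 minus Timp1 on the log2 CPM scale was 4.08, 4.68 and 5.17 in Cre- controls, against 4.54, 3.43 and 4.13 in PTEC DN RAR libraries. Both genes had fallen, and the distance between them overlapped (difference -0.61, two-sided exact permutation test, p = 0.3). The difference was -0.31 without PTEC DN RAR replicate 2 and -0.35 without Cre- control replicate 3. Mmp2 minus Timp2 was -6.63, -6.81 and -6.18 in Cre- controls, against -5.51, -4.86 and -5.47 in PTEC DN RAR libraries, without overlap (difference 1.26, exact permutation p = 0.1, the smallest that 3 against 3 allow). Mmp14 minus Timp2 was -0.29, -0.48 and -0.29 against -1.19, -1.19 and -0.38, and the highest PTEC DN RAR library lay within the control range (difference -0.57, exact permutation p = 0.2). Adjusted over the 3 pairs, each p was 0.3.

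Levels of different genes were compared as CPM per kb of exon, with all annotated exons of a gene merged. In Cre- controls the order was Adam8 at 79.5 ± 11.9 CPM per kb (SD, n = 3), Mmp9 at 52.9 ± 16.7, Timp2 at 50.8 ± 3.80, Mmp14 at 26.0 ± 2.12, Mmp13 at 24.5 ± 8.96, Timp3 at 19.4 ± 2.53, Mmp12 at 17.9 ± 3.42, Mmp19 at 17.0 ± 3.26, Timp1 at 8.25 ± 1.77 and Mmp2 at 0.620 ± 0.0986. Neighbors in this order overlapped over libraries except at 3 steps, from Timp2 to Mmp14, from Mmp19 to Timp1 and from Timp1 to Mmp2. The first of these steps depends on the length used, since per kb of the longest coding transcript Mmp14 averaged 59.7 and Timp2 53.4 CPM in Cre- controls. In PTEC DN RAR libraries Timp2 (68.6 ± 14.9 CPM per kb, SD, n = 3) and Timp3 (57.0 ± 6.81) led, overlapping each other and above all proteases. Per kb of the longest coding transcript Timp3 averaged 98.3, Timp2 72.1 and Mmp14 53.7 CPM there, Timp3 no longer overlapped Timp2, and Timp2 overlapped Mmp14. Mmp13 (27.7 ± 10.0), Mmp14 (23.4 ± 2.38), Adam8 (19.4 ± 10.4), Mmp12 (13.7 ± 2.45) and Mmp9 (12.4 ± 5.15) followed, each overlapping the next, and Timp1 (2.81 ± 0.294), Mmp19 (2.74 ± 0.259) and Mmp2 (2.12 ± 0.938) came last, again overlapping.

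Adam8 and Mmp9 together made up most of the protease transcripts per length in each control library, with 34.5%, 39.2% and 35.2% for Adam8 and 22.6%, 19.2% and 30.2% for Mmp9. In PTEC DN RAR libraries Adam8 took 19.7%, 10.4% and 25.7% and Mmp9 20.3%, 8.34% and 9.37%, while Mmp13 and Mmp14, whose levels did not pass the test, took from 18.2% to 35.7% and from 21.9% to 24.0%. Timp3 grew from 25.3%, 21.9% and 26.9% of TIMP transcripts per length to 38.8%, 42.1% and 53.3%. The 7 proteases summed to 2.25, 2.96 and 3.22 times the 3 TIMPs in Cre- controls, and to 0.702, 0.677 and 1.02 times in PTEC DN RAR libraries, without overlap. Without Adam8, which TIMPs do not hold, the 6 MMPs summed to 1.47, 1.80 and 2.08 times the TIMPs against 0.563, 0.607 and 0.760 times. These sums describe the chosen genes and were not tested. They are of transcripts, not of active enzyme, since MMPs are made as inactive precursors.

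**Figure D3:**
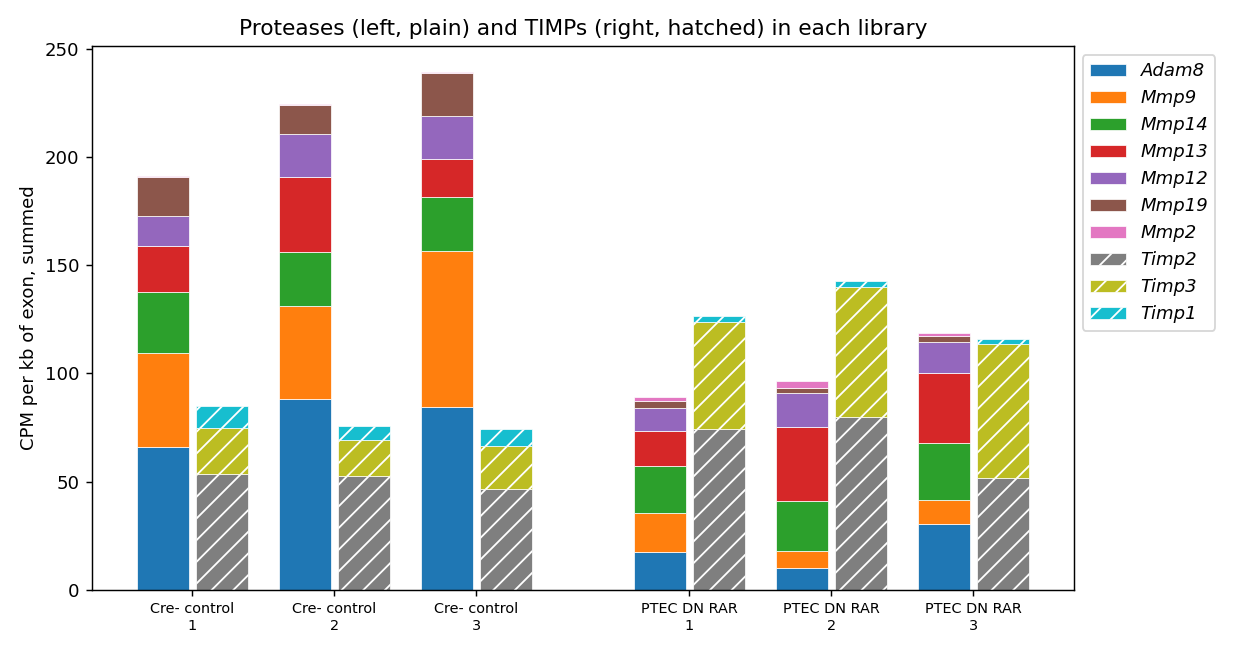
Stacked CPM per kb of exon for the 7 proteases (left bar of each pair) and the 3 TIMPs (right bar, hatched) in each library. The proteases stand above the TIMPs in the 3 Cre- control libraries, and the bars are near or below the TIMPs in the 3 PTEC DN RAR libraries, where the ratio was 0.702, 0.677 and 1.02.

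Lists of other family and pathway genes, chosen by name, held 84 genes, of which 67 were tested, with 14 lower and 26 higher in PTEC DN RAR libraries and a median log2 fold change of 0.48, beside 17.1% lower, 23.6% higher and a median of 0.04 over all genes tested. Without Cre- control replicate 3 the number higher was 15, and with pan-leukocyte scaling the number lower was 9. Of 17 other MMPs, 9 were tested, 2 fell and 4 rose. Mmp8, the neutrophil collagenase, had 33.5 ± 6.50 CPM in controls and 11.5 ± 1.01 CPM in PTEC DN RAR libraries (SD, n = 3 each) and fell with a log2 fold change of -1.53 (edgeR, adjusted p = 0.000313), and Mmp27 fell from 2.19 ± 0.331 to 0.425 ± 0.200 CPM (log2 fold change -2.36, adjusted p = 0.00164). Mmp28, at 0.992 ± 0.393 CPM in controls and 2.42 ± 0.376 CPM in PTEC DN RAR libraries, rose by 1.28 on the log2 scale (edgeR, adjusted p = 0.0148). Of the 4 other inhibitors 3 were tested, and Reck, a membrane-anchored MMP inhibitor, was the 1 that passed (log2 fold change 1.00, edgeR, adjusted p = 0.0253). Reck no longer passed without Cre- control replicate 3 (0.73, adjusted p = 0.0962), PTEC DN RAR replicate 2 (adjusted p = 0.068) or PTEC DN RAR replicate 3 (adjusted p = 0.0822).

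Of 12 other ADAMs, 11 were tested, 3 fell and 5 rose. Among those that passed with a mean of at least 1 CPM, the largest changes were rises of Adam23 (2.04 on the log2 scale), Adam22 (1.79) and Adam33 (0.87), all 3 below 20 CPM on average in both groups. Both Adam22 and Adam23 encode members without protease activity that act in cell adhesion. Of the 19 ADAMTS genes, proteases secreted into the matrix, 13 were tested, 0 fell and 2 rose, Adamts2, which trims procollagen (1.15), and Adamts10 (0.42). Without Cre- control replicate 3, Adam23 (edgeR, adjusted p = 0.0553) and Adam33 (adjusted p = 0.0604) no longer passed. Adamts2 passed only without PTEC DN RAR replicate 3 when each library was left out in turn, with an adjusted p of 0.061 to 0.0879 without each of the others.

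Plasmin and its activators cut matrix and activate MMP precursors. Of 8 genes of this system 7 were tested, 3 fell and 2 rose. Serpinb2, an inhibitor of plasminogen activators, fell by 2.35 on the log2 scale (edgeR, adjusted p = 0.0104), with 3.51, 17.1 and 5.42 CPM in Cre- controls and 2.08, 1.23 and 1.78 CPM in PTEC DN RAR libraries, so that control replicate 2 stood above the sum of the other controls. Without it the fall was by 1.43 (edgeR, adjusted p = 0.0114). Plat, the gene of tissue plasminogen activator, and Serpine2, another inhibitor, rose by 1.15 and 1.36.

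Of 9 genes for proteins that bind, activate or clear MMPs, 9 were tested, 5 fell and 2 rose. Thbs1, for thrombospondin 1, fell, with 1606 ± 454 CPM in controls against 440 ± 91.4 CPM (SD, n = 3 each, log2 fold change -1.87), whereas Thbs2 rose from 4.79 ± 0.616 to 14.2 ± 0.578 CPM (log2 fold change 1.57). Lcn2, for the lipocalin that binds and stabilizes MMP9, fell by 1.06 on the log2 scale (edgeR, adjusted p = 0.00517), with 96.4, 63.9 and 65.8 CPM in Cre- controls and 45.7, 27.4 and 35.7 CPM in PTEC DN RAR libraries.

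All 15 matrix substrate genes were tested, and 10 rose while 1 fell. Fn1, for fibronectin, was the one that fell, with 1387 ± 281 CPM in controls against 398 ± 124 CPM (SD, n = 3 each, log2 fold change -1.80, edgeR, adjusted p = 0.000933). Hspg2, for perlecan, rose by 1.47 and Eln, for elastin, by 1.44 on the log2 scale, from means of 24.5 and 3.92 CPM in controls. The median log2 fold change of the matrix list was 1.01, beside medians of 1.05 for fibroblast and pericyte, 1.42 for endothelial and 1.24 for podocyte markers. Tubule marker medians were 1.56 for distal tubule and collecting duct, 1.77 for proximal tubule and 2.12 for thick ascending limb. The part of all these cells was not tested.

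**Figure D4:**
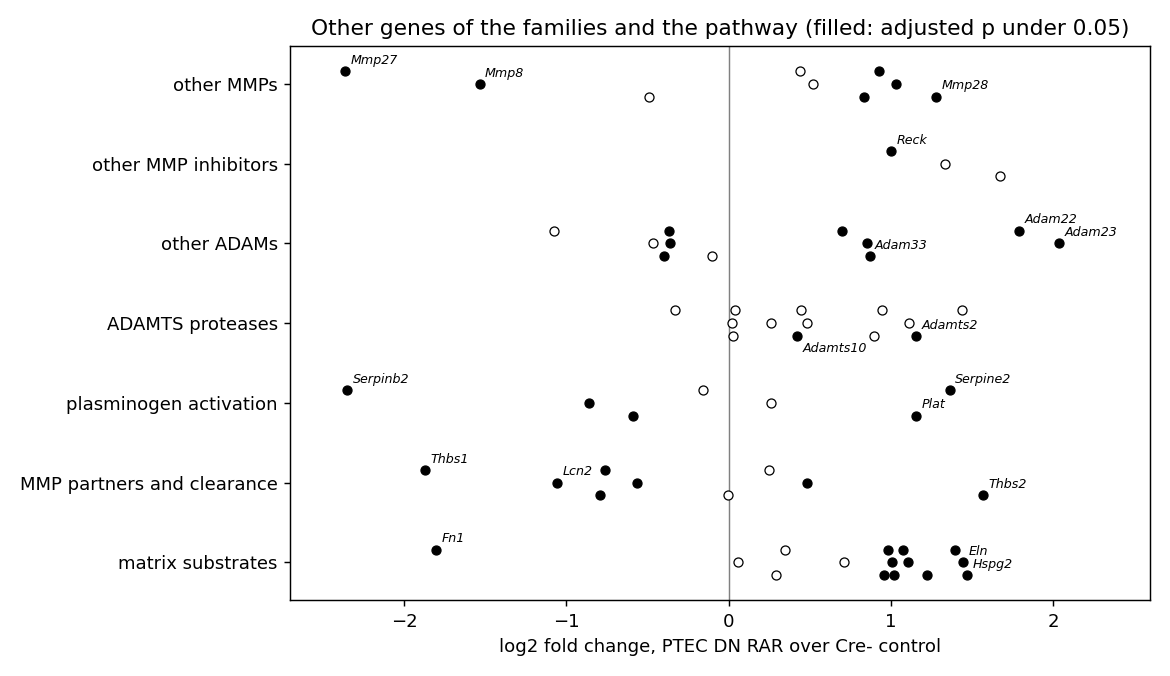
Log2 fold change, PTEC DN RAR over Cre- control, of the 67 tested genes of the other lists, with 1 point per gene, filled at an adjusted p under 0.05 by edgeR. The matrix substrate genes that passed lie to the right of 0 except Fn1 at -1.80, and the other MMPs lie on both sides, from Mmp27 at -2.36 to Mmp28 at 1.28.

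Markers of some leukocyte types differed between genotypes as well. Of 11 neutrophil markers 9 were tested, 4 were lower and 0 higher, with a median log2 fold change of -0.83, and their summed level was between 438 and 809 CPM in Cre- controls and between 286 and 415 CPM in PTEC DN RAR libraries. The defining marker Ly6g was scarce, with 0.282, 1.54 and 1.55 CPM against 0.358, 0.518 and 0.339 CPM, and no marker was at 0 in all 6 libraries. Of 8 markers of infiltrating monocytes, 6 were lower and 0 higher, with a median of -0.91 and summed levels between 2451 and 2690 CPM against 1213 and 1383 CPM. Resident macrophage markers overlapped between genotypes (from 13690 to 14953 CPM against 12937 to 16285 CPM, with 2 of 9 lower and 1 higher). The log2 fold changes of single monocyte markers ran from -2.35 (F13a1, 606 to 119 CPM on average) to -0.27 (Hp), and those of Mmp9, Mmp19 and Adam8 were -2.09, -2.63 and -2.04. The part of those cells in the 3 falls was not tested.

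**Figure D5:**
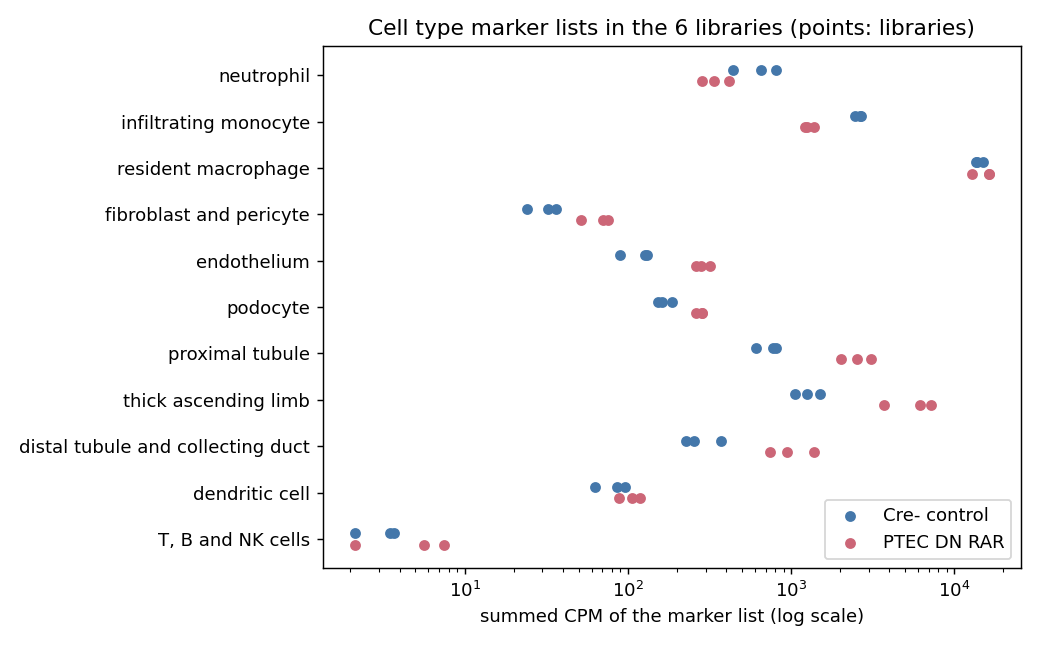
Summed CPM of each cell type marker list on a log axis, with 1 point per library. Infiltrating monocyte and neutrophil lists lie lower in PTEC DN RAR libraries, lists of endothelium, fibroblasts and pericytes, podocytes and tubule segments lie higher, and resident macrophage markers overlap.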

How the data were processed

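RNA-Seq was performed on poly(A) RNA of renal CD11B+ cells, with 3 PTEC DN RAR and 3 Cre- control libraries, grouped by their titles. The authors deposited raw counts of reads for each Ensembl gene of all 6 libraries in 1 table, without normalization. The submitters' processing notes name STAR 2.5.0a, HTSeq 0.6.1 and GRCm38, with no role or order given. The annotation release and the use of strand are not given in the sources used here. Reads aligned to more than 1 place (42.9% to 47.8% of alignments) and reads over several genes (at most 0.527%) stood in lines of their own and were left out, which lowers genes with near copies. Of 46612 gene lines, 9 repeats were collapsed.

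After filterByExpr and TMM, the quasi-likelihood test (glmQLFit, glmQLFTest) was run in edgeR 4.0.16 (R 4.3.3), and p-values were adjusted by the Benjamini-Hochberg method across the 15440 genes kept. An SE is the log2 fold change divided by the square root of F. Within-library differences used log2 CPM with a prior count of 2 and two-sided exact permutation tests. Alternatives used DESeq2 1.42.0, limma 3.58.1, other filters and scalings, the replicate number as a block, and each library left out. Fits were tested on simulated data. Positions, lengths and sequences come from GENCODE M21 (GRCm38). No pair of libraries in a group agreed within sampling noise (chi-square at least 27.8 times its degrees of freedom).

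The 10 genes, the other lists and the markers were chosen with earlier results of these data known. Beside the 10, genes named in the text are, per list, up to 3 with the largest absolute log2 fold change among those with an adjusted p under 0.05 and a mean of at least 1 CPM in either group (at most 20 in all), and genes whose exons overlap a member. Itgam, Csf1r, Ptprc, Rara, Ly6g, Mmp7 and single marker genes were named outside this rule, after their values were seen. Summed levels of dendritic cell markers (88.6 to 119 CPM in PTEC DN RAR against 62.8 to 96.8 CPM in Cre- control libraries) and of T, B and NK cell markers (2.12 to 7.45 against 2.12 to 3.69 CPM) overlapped, with 2 of 6 (Xcr1 and Clec9a) and 0 of 6 tested genes higher and 0 lower in both. Of thick ascending limb markers 6 of 6 were higher (3690 to 7166 against 1056 to 1509 CPM). Of distal tubule and collecting duct markers (746 to 1375 against 227 to 370.2 CPM) 3 of 6 were higher (Slc12a3, Calb1 and Pvalb), and Aqp2, Hsd11b2 and Scnn1g did not pass the test.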

Additional observations from a re-analysis of the deposited data

How the results depend on the processing

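For Mmp2, Mmp9, Mmp19, Adam8, Timp1 and Timp3, all 84 alternative fits kept the direction and the call. With pan-leukocyte scaling 704 genes were lower, with 9 lower among the other family and pathway genes, and Mmp14 changed sign to 0.077. Leaving out each library gave 15 to 27 higher and 11 to 13 lower among those genes, with the 15 without Cre- control replicate 3. The same step gave -0.056 to 0.47 for Mmp13, below 0 without Cre- control replicate 3 or PTEC DN RAR replicate 2. Leaving out each library was added after seeing the data for the 18 other named genes, of which 14 passed in all 6 fits, Adam23 and Adam33 in 5, Reck in 3 and Adamts2 in 1. Differences within a library kept their direction in all 7 alternatives each. Alternatives chosen after seeing the data moved the summed protease over TIMP level of Cre- controls from 2.81 to 3.33 with the length of the longest coding transcript, and to 1.78 without Adam8, against 0.801, 0.911 and 0.644 in PTEC DN RAR libraries. With that length Mmp14 ranked second in controls and Timp3 first in PTEC DN RAR libraries. Whether the replicate numbers pair the libraries is not known. Same-numbered libraries had correlations of -0.01, 0.21 and 0.03 between their deviations from the group means. Differently numbered libraries had correlations from -0.18 to 0.15, and with 3 libraries per group these values cannot decide. As a block, the replicate numbers gave 2606 genes lower and 3612 higher. Mmp12 (adjusted p = 0.00928 by edgeR) and Timp2 (adjusted p = 0.0253) were then past the threshold. Mmp2 and Timp1 had the fewest reads of the 10 genes, summed over the 6 libraries.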
